A study of Mus musculus with 4 samples.

Results

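Purinergic signalling genes were examined in CD11b-positive cells isolated from mouse brain, in 4 RNA-seq libraries that form 1 group. The 9 genes were chosen by name: the nucleotide receptor genes P2ry12, P2ry13, P2ry6, P2ry14, P2rx4 and P2rx7, the ectonucleotidase gene Entpd1, and the adenosine receptor genes Adora3 and Adora2a. Each was matched by Ensembl identifier to 1 row of the 55471 genes in the deposited count table. The mice were 10 to 13 weeks old by the labels and had received PLX5622, an inhibitor of the CSF1 receptor that depletes microglia, for 7 days, and then no drug for 10 days, 17 days in all. The stated aim of the withdrawal was to let microglia repopulate the brain. No untreated or depleted group was analysed here, so the values below are levels and the spread between libraries, with no estimate of a drug effect. Microglia that had returned and microglia that had outlived the treatment cannot be told apart. Strain and genotype are not given in the labels, nor whether each library came from 1 animal, so the spread between libraries may be technical. The p-values for single genes measure that spread alone. Those for pairs of genes set 2 genes against each other over the same libraries.

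Extracellular ATP and ADP are released by active and injured cells, and microglia read them through a family of receptors. P2X receptors are ion channels opened by ATP. P2Y receptors couple to G proteins and respond to ADP, UDP or UDP-glucose, depending on the receptor. CD39, the product of Entpd1, removes phosphates from ATP and ADP at the cell surface, CD73, the product of Nt5e, turns the resulting AMP into adenosine, and adenosine acts on its own receptors. In brain, P2Y12 is widely used as a marker of surveying microglia and directs their processes towards ATP released at sites of injury.

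Library totals lay between 23036202 and 24487418 counts, and libraries are numbered 1 to 4 as in the labels. Values per library are given in that order throughout. Levels are given as CPM, counts scaled to 1e6 per library after TMM adjustment of library size. All 13 genes of a homeostatic microglia list without purinergic genes reached 1 CPM in every library, with list medians of 11.04, 10.84, 11.13 and 10.78 on the log2 scale. Markers of endothelial cells and choroid plexus were also present and were lowest in library 3, and the interferon-response list stood lowest in library 1 and top in library 3. In such bulk samples, fewer cells of a type and less RNA per cell cannot be told apart. Of the 9 purinergic genes, 8 reached 1 CPM in every library, and Adora2a fell under it in library 3. All 9 passed the filter on low counts used for testing. The members together took 0.676%, 0.517%, 0.547% and 0.506% of the counts of a library.

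P2ry12, P2ry13 and P2ry14 lie side by side on chromosome 3. On GRCm38 and GENCODE M21, P2ry14 (ENSMUSG00000036381) spans 59113855 to 59153618, P2ry13 (ENSMUSG00000036362) 59207892 to 59210882 and P2ry12 (ENSMUSG00000036353) 59216272 to 59262871, all on the minus strand and all protein coding. The gap between P2ry13 and P2ry12 is 5389 bases, and the cluster covers 149017 bases. All 3 sit inside Med12l, which runs on the plus strand. P2ry12 shares 9 exonic bases with Med12l, and P2ry13 and P2ry14 share none. The strand setting of the counting is not given in the sources used here, so reads of P2ry14, the low member, cannot be told apart from intronic reads of Med12l. Med12l itself had 54.7, 66.0, 68.1 and 62.0 CPM. The promoters of the 3 genes are shown because their levels in the same cells lay far apart. Each runs from 250 bases before to 50 bases after the annotated start, 5′ to 3′ on the gene's strand, from RefSeq on GRCm38.p6, at chr3:59262936-59263235 for P2ry12, chr3:59210833-59211132 for P2ry13 and chr3:59153443-59153742 for the first of 4 start sites of P2ry14. Capitals mark GAGGAAG, a form of the ETS motif that the myeloid factor PU.1 binds, and TGANTCA, the AP-1 letters, searched on both strands.
P2ry12: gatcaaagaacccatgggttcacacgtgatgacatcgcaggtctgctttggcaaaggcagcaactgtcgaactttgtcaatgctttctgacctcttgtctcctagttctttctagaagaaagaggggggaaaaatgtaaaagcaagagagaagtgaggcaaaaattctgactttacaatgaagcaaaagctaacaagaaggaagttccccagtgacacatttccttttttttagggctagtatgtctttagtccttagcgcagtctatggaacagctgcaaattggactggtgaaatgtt
P2ry13: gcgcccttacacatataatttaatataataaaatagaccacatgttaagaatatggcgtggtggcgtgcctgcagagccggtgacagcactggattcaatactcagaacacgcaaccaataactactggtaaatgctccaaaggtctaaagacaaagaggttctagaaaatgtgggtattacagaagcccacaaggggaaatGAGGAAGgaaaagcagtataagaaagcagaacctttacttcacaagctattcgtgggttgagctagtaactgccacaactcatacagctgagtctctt
P2ry14: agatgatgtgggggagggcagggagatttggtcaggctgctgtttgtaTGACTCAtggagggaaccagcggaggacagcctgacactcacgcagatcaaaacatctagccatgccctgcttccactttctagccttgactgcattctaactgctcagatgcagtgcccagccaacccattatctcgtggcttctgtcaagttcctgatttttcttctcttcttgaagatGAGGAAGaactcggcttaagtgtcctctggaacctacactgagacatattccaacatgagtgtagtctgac
P2ry13 held GAGGAAG at position -48 from the start and P2ry14 at -21, with TGACTCA at -202 in P2ry14. The P2ry12 window held no match to either set of 7 letters, and the shorter core that ETS factors share was not searched for. RefSeq gave 12 start sites for 7 of the 9 members. Of these sites 5 held GAGGAAG and 4 held TGANTCA, against 13.4% and 7.79% of all 32544 promoters of this length. None held the interferon-stimulated response element letters (GAAA, 2 unspecified bases, GAAA), which 3.45% of promoters hold. Some start sites of P2ry14 lie close enough together that their windows overlap. The motifs do not overlap each other in the printed windows, and a match describes letters only.

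P2ry12, the ADP receptor that couples to Gi, was the highest of the 9 genes. It had 104468, 65201, 70777 and 68685 counts, or 4262, 2816, 3116 and 2726 CPM, with a mean of 3230 ± 708 CPM (SD, n = 4). It ranked 24 of 55471 genes by CPM and 24 by CPM per kilobase of exon. Library 1 stood above the others, 1.48-fold over their mean, and libraries 2, 3 and 4 lay close together. P2ry12 took 63.3%, 54.7%, 54.9% and 55.4% of the counts of the 9 genes.

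P2ry13, a second ADP receptor coupled to Gi, had 941, 795, 863 and 730 CPM, with a mean of 832 ± 90.8 CPM (SD, n = 4) and rank 122. It was again highest in library 1 and lowest in library 4, with a range of 1.29-fold against 1.56-fold for P2ry12, and with scaling to the homeostatic list both genes were lowest in library 3. P2ry14, the receptor for UDP-glucose and UDP, was far lower than its neighbours, with 102, 108, 84 and 107 counts, or 4.16, 4.66, 3.70 and 4.25 CPM. The exact 95% Poisson interval was 3.39 to 5.05 CPM in library 1 and 2.95 to 4.58 CPM in library 3. The intervals of all 4 libraries overlapped, although overlap is not a test. A goodness of fit in edgeR gave an unadjusted p of 0.983, so no difference was detected at this depth. These intervals allow for counting error alone, as amplified reads carrying no molecular identifier need not be separate molecules.

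Within each library, scaling cancels and the genes of the cluster can be set against each other per kilobase of merged exons. The ratio of P2ry12 to P2ry13 was 4.5, 3.52, 3.58 and 3.71 (mean log2 1.93 ± 0.16, SD, n = 4). The ratio of P2ry12 to P2ry14 was 4449, 2622, 3660 and 2788, and that of P2ry13 to P2ry14 was 989, 746, 1021 and 751. By this length measure, both ADP receptor genes thus stood about 746-fold or more above the UDP-glucose receptor gene of the same cluster in every library. Per kilobase of the longest transcript, mean levels were 1378 for P2ry12, 329 for P2ry13 and 0.538 for P2ry14, so these ratios are smaller by that measure.

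P2ry6 (ENSMUSG00000048779, chromosome 7, 100937630 to 100974649, minus strand) encodes a UDP receptor that couples to Gq and is known in microglia for triggering phagocytosis. It had 239, 232, 260 and 218 CPM, with a mean of 237 ± 17.3 CPM (SD, n = 4). The 4 libraries lay within 1.19-fold of each other. Among the wider list, other Gq-coupled P2Y genes were low: P2ry1, an ADP receptor, had 3.92, 4.36, 1.10 and 4.05 CPM, and P2ry2, a receptor for ATP and UTP, had 1.88, 1.90, 1.19 and 2.02 CPM. P2ry6 therefore held most of the summed level of P2ry1, P2ry2 and P2ry6, which was 84.2, 82.0, 90.5 and 76.9 CPM per kilobase, against 82.8, 80.5, 89.9 and 75.4 CPM per kilobase for P2ry6 alone. Of the remaining genes with a P2Y name, P2ry10b had 17.8 ± 1.92 CPM and P2ry10 had 1.76 ± 0.615 CPM (SD, n = 4). P2ry4 had 1 count in library 1 and none in the others. P2ry10 and P2ry10b were listed by name, and whether they respond to nucleotides was not examined.

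P2rx7 and P2rx4 are neighbours on chromosome 5, both on the plus strand, with P2rx7 (ENSMUSG00000029468) at 122643911 to 122691432, P2rx4 (ENSMUSG00000029470) at 122707544 to 122729738 and 16111 bases between them. P2X7 opens at high ATP and is known for activating the NLRP3 inflammasome, and P2X4 is known from microglia in nerve injury pain. P2rx7 had 248, 290, 333 and 280 CPM, with a mean of 288 ± 35.0 CPM (SD, n = 4). P2rx4 had 74.5, 79.0, 107 and 80.2 CPM, with a mean of 85.2 ± 14.8 CPM. Library 1 had the lowest and library 3 the highest level of both genes, though scaling to the homeostatic list put P2rx7 highest in library 4. Per kilobase the ratio of P2rx7 to P2rx4 was 3.92, 4.32, 3.66 and 4.11 (mean log2 2.00 ± 0.10, SD, n = 4). Of the 5 other P2X genes, P2rx1 alone reached 1 CPM in every library, at 8.12 ± 0.972 CPM. P2rx6 had 2.65, 2.42, 0.836 and 3.45 CPM, and P2rx2, P2rx3 and P2rx5 had at most 14 counts in a library.

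Adora3, the Gi-coupled A3 adenosine receptor gene (ENSMUSG00000000562, chromosome 3, 105870858 to 105908926, plus strand), was the highest adenosine receptor gene. It had 148, 100.4, 120.4 and 107 CPM, with a mean of 119 ± 21 CPM (SD, n = 4), and was highest in library 1, as P2ry12 and P2ry13 were. Adora3 shares 779 of its 3729 exonic bases with Tmigd3 on the same strand, and 82.5% of its 75-base words occur in no transcript of another gene, so its level is uncertain. Tmigd3 had 2, 2, 1 and 3 counts. How the counting treated reads in shared exons is not given in the sources used here. P2ry12, P2ry13, P2ry6, P2ry14, Entpd1 and Adora2a shared no 75-base word with another gene, and the unique share was 99.2% for P2rx7 and 99.8% for P2rx4.

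Adora2a, a Gs-coupled adenosine receptor gene (ENSMUSG00000020178, chromosome 10, 75316877 to 75334784, plus strand), was the lowest member by CPM. It had 47, 56, 19 and 53 counts, or 1.92, 2.42, 0.836 and 2.10 CPM. Its exact 95% Poisson intervals were 0.504 to 1.31 CPM in library 3 and 1.41 to 2.55, 1.83 to 3.14 and 1.58 to 2.75 CPM in libraries 1, 2 and 4. Library 3 was thus lower than the others beyond counting error, though not beyond the spread of genes of its level (edgeR goodness of fit, adjusted p = 1.00). Adora2b, the other Gs-coupled receptor gene, had 4.32, 2.81, 0.616 and 4.01 CPM, also lowest in library 3, and Adora1, a Gi-coupled one, had 2.86, 3.07, 3.61 and 3.89 CPM. Summed per kilobase, the 5 Gi-coupled purinergic receptor genes had 2087, 1449, 1599 and 1389 CPM per kilobase. The 2 Gs-coupled genes had 2.97, 2.31, 0.607 and 2.86 CPM per kilobase, and the 7 P2X genes had 56.7, 63.8, 74.6 and 62.3 CPM per kilobase.

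Entpd1 (ENSMUSG00000048120, chromosome 19, 40612366 to 40741602, plus strand) varied least of the 9 genes between libraries, though P2ry6 and P2ry13 varied less when scaled to the homeostatic list (5.29% and 6.37%, against 7.76% for Entpd1). It had 818, 826, 875 and 772 CPM, with a mean of 823 ± 42.1 CPM (SD, n = 4) and a range of 1.13-fold. Its coefficient of variation between libraries was 5.12%, and 7.01% of all tested genes had a lower one. Nt5e, the next enzyme on the route to adenosine, had 71, 88, 19 and 119 counts, or 2.90, 3.80, 0.836 and 4.72 CPM. Per kilobase, Entpd1 stood 435-, 335-, 1613- and 252-fold above Nt5e, and the high ratio of library 3 rests on 19 counts of Nt5e. The summed level of the AMP-hydrolysing genes Nt5e, Alpl and Acpp was 5.78, 7.74, 1.35 and 6.29 CPM per kilobase, against 147, 148, 157 and 138 CPM per kilobase for Entpd1. Entpd2, Entpd3 and Entpd8, which also act at the cell surface, summed to 0.635, 1.24, 0.312 and 1.42 CPM per kilobase, and Entpd8 had no counts.

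**Figure D1:**
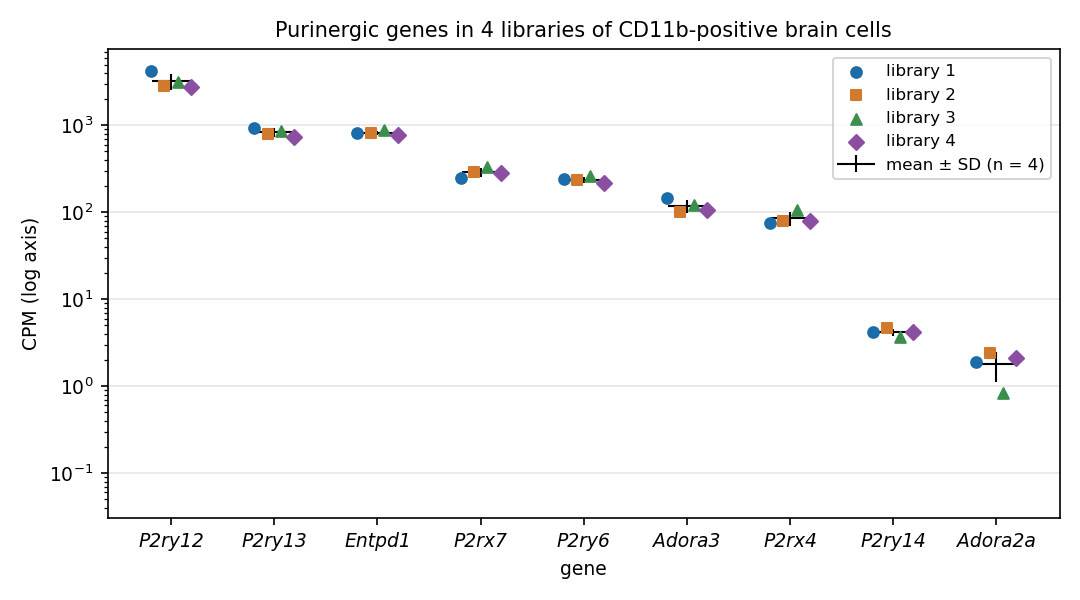
CPM of the 9 genes on a log axis, with 1 point per library and the mean ± SD (n = 4) in black. P2ry12 averages 3230 CPM, P2ry13 and Entpd1 lie together at 832 and 823 CPM, and P2ry14 and Adora2a sit at 4.19 and 1.82 CPM.

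Compared per kilobase of merged exons, the levels fell into a clear order. P2ry12 led with 1269 ± 278 CPM per kilobase (SD, n = 4), followed by P2ry13 with 329 ± 35.9, Entpd1 with 147 ± 7.54, P2ry6 with 82.2 ± 6.0, P2rx7 with 48.2 ± 5.86, Adora3 with 31.9 ± 5.62 and P2rx4 with 12.1 ± 2.11 CPM per kilobase. Adora2a with 0.594 ± 0.224 and P2ry14 with 0.379 ± 0.0358 CPM per kilobase were last. Of the 36 pairs of members, 35 stood in the same order in all 4 libraries. The exception was Adora2a over P2ry14, with a mean ratio of 1.46-fold (log2 0.55 ± 0.56, SD, n = 4) that turned round in library 3. These neighbours did not differ beyond their spread. P2rx7 and Adora3 were also close, 1.52-fold apart in the mean, with a log2 ratio of 0.07 in the closest library, and with length taken from the longest transcript P2rx7 was higher in 3 of 4 libraries. The widest step between neighbours, 21.8-fold, separated P2rx4 from Adora2a. By sign-flip permutation, exact and two-sided over the 4 libraries, p was 0.13 (adjusted 0.143 over the 8 neighbouring pairs) for 7 pairs, the smallest p this design can give, and 0.25 for Adora2a against P2ry14. No pair could therefore pass 0.05.

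**Figure D2:**
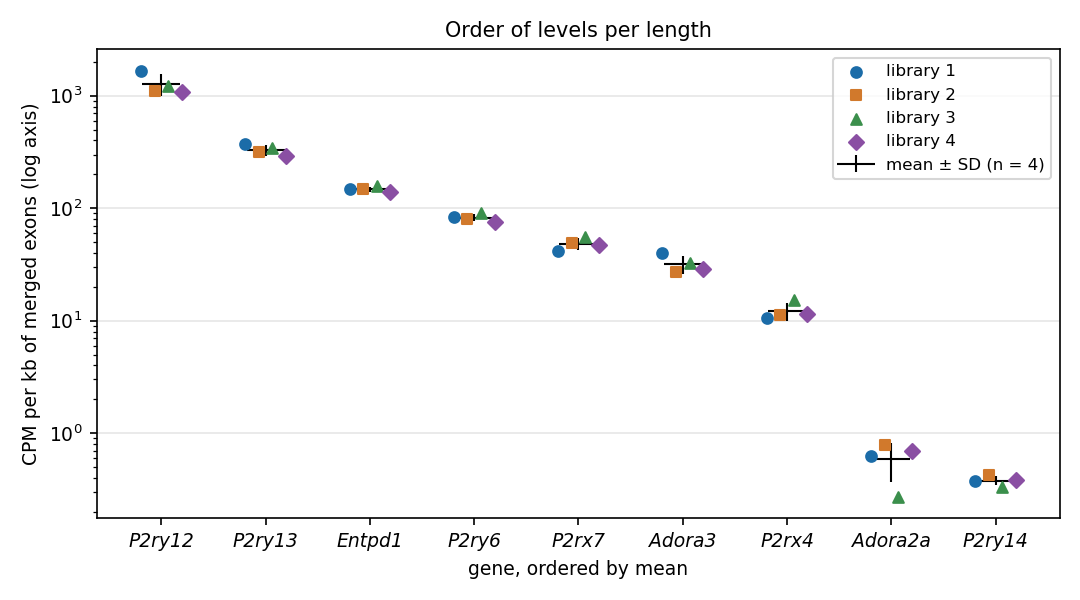
CPM per kilobase of merged exons on a log axis, genes ordered by mean, with 1 point per library and the mean ± SD (n = 4). The 7 genes from P2ry12 (1269) to P2rx4 (12.1) lie far above Adora2a (0.594) and P2ry14 (0.379), whose points overlap.

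None of the 9 genes varied between libraries past the threshold. An edgeR goodness of fit of a single-group negative binomial model called 0 of 9 at an adjusted p under 0.05, against 3.28% of the 14112 genes tested, and 0 of 9 at an unadjusted p under 0.05, against 9.57% of all genes tested. The smallest unadjusted p was that of P2ry12, 0.272 (edgeR, adjusted p = 1.00). A quasi-likelihood variance test in edgeR and the dispersion outliers of DESeq2 also called 0 of 9, against 0% and 0.0354% of all genes. The biological coefficient of variation over all genes was 26.6% from the common dispersion, while the test used a dispersion that follows the level of a gene. The 26.6% is therefore not the limit that the test set for P2ry12. Coefficients of variation of the members ran from 5.12% for Entpd1 to 37.8% for Adora2a, with a median of 12.2%, beside a median of 16% over all genes tested and 12.6% over the 9307 with a mean of at least 10 CPM. They were 7.30% for P2ry6, 9.46% for P2ry14, 10.9% for P2ry13, 12.2% for P2rx7, 17.4% for P2rx4, 17.6% for Adora3 and 21.9% for P2ry12.

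The members did not share 1 pattern over the libraries. P2ry12, P2ry13 and Adora3 were highest in library 1, by 1.48-, 1.18- and 1.35-fold over the mean of the others. P2rx4, P2rx7, Entpd1 and P2ry6 were highest in library 3, by 1.37-, 1.22-, 1.09- and 1.13-fold over the mean of the others. P2ry14 and Adora2a were highest in library 2 and lowest in library 3. Counts of 3, 2, 4 and 0 members highest in libraries 1 to 4 stand beside 34.2%, 16.5%, 28.3% and 20.9% of all genes tested. Counts of 2, 1, 2 and 4 members lowest in libraries 1 to 4 stand beside 31%, 19.5%, 29.2% and 20.3%, but with scaling to the homeostatic list they were 4, 0, 5 and 0. Under 4 scalings of the libraries, the library with the highest value stayed the same for P2ry12, P2ry13, Adora3, P2rx4, P2ry14 and Adora2a. Scaled to the homeostatic microglia list, which moves all genes by -0.09, 0.11, -0.18 and 0.17 on the log2 scale in libraries 1 to 4, P2rx7 was highest in library 4 and Entpd1 and P2ry6 in library 2. With that scaling P2ry12 had 3996, 3031, 2744 and 3067 CPM, still highest in library 1.

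**Figure D3:**
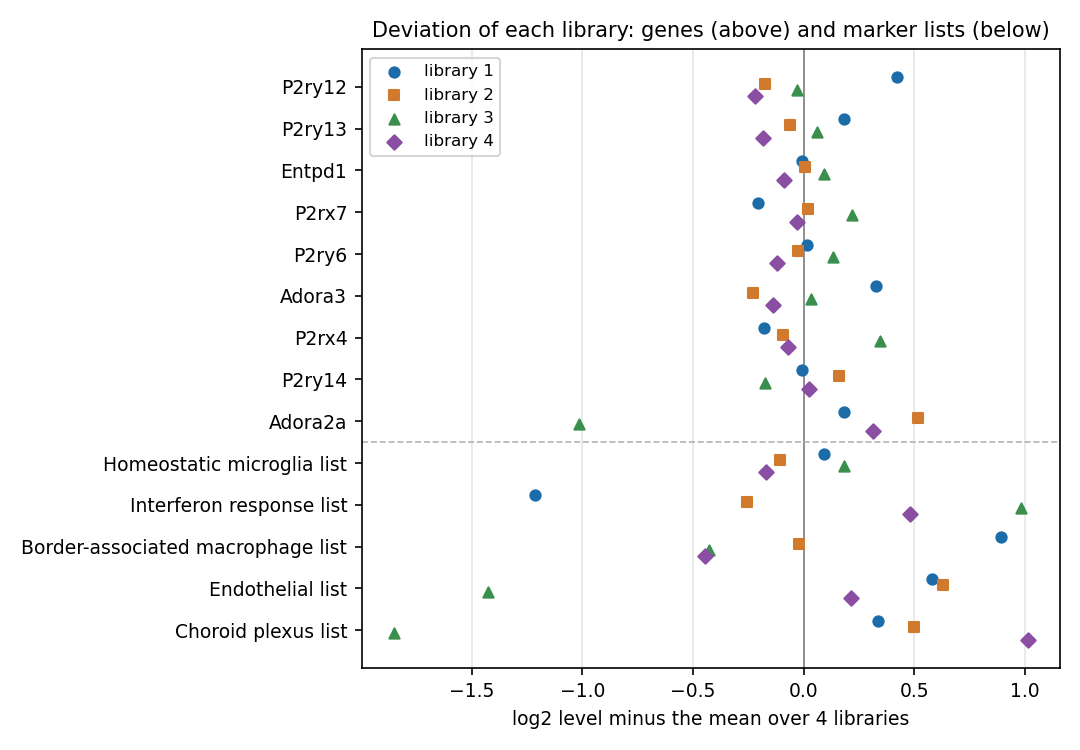
Deviation of each library from the mean over 4 libraries on the log2 scale, for the 9 genes (above the dashed line) and the medians of 5 marker lists (below it). P2ry12 and Adora3 lie highest in library 1, P2rx4 and P2rx7 in library 3 (scaling to the homeostatic list puts P2rx7 highest in library 4), and Adora2a lies lowest in library 3, where the endothelial and choroid plexus lists are also lowest.

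Other measures moved with some of these differences. The interferon-response list had medians of 3.87, 4.83, 6.07 and 5.56 (log2), lowest in library 1 and highest in library 3, as P2rx4 and P2rx7 were, and all 12 of its members reached 1 CPM in every library, with summed levels between 261 and 957 CPM. The border-associated macrophage list had medians of 5.96, 5.05, 4.64 and 4.62, highest in library 1 like P2ry12, P2ry13 and Adora3, with 7 of 7 members at 1 CPM and summed levels between 264 and 649 CPM. The endothelial list had medians of 6.38, 6.43, 4.37 and 6.01 and the choroid plexus list 6.53, 6.69, 4.34 and 7.21. Both were lowest in library 3, as were Adora2a, Adora2b, Nt5e, P2ry1 and P2ry14, the last with overlapping Poisson intervals. The pericyte and smooth muscle list, with medians of 6.36, 5.92, 3.39 and 5.48, was lowest there too. So were the medians of the oligodendrocyte, astrocyte, neuron, striatal neuron, mast cell and T and NK cell lists. All 10 endothelial and all 8 choroid plexus members reached 1 CPM, and their summed levels ran from 226 to 962 and from 2300 to 15843 CPM. The part of these lists in the levels of the purinergic genes was not tested.

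Some members are known from cells other than microglia, whose markers were measured too. Platelets carry P2ry12, and of the platelet markers Gp1ba, Gp1bb and Gp6 had at most 2 counts in a library and Ppbp at most 10. Itgb3, Gp9, Treml1 and Itga2b were higher, at 67.1, 19.4, 2.40 and 1.62 CPM. The platelet list sum was 112, 90.8, 82.6 and 78.1 CPM, of which Itgb3 had 78.2, 67.6, 63.8 and 58.7 CPM. Gp9 had 29.0, 18.8, 14.9 and 14.7 CPM. All of these were highest in library 1 and lowest in library 4, as P2ry12 was at 2726 to 4262 CPM. The list median, however, was -0.35, -0.10, -0.47 and -0.52 (log2), highest in library 2. Itga2b was highest in library 4, Treml1 in library 3 and Ppbp in library 2. The part of platelets in the level of P2ry12 was not tested. Mast cells carry Adora3, and all 7 mast cell markers stayed at 16 counts or fewer, with summed levels of 1.47, 0.864, 0.572 and 0.833 CPM. That sum was highest in library 1, as Adora3 was at 100.4 to 148 CPM, and its part in the level of Adora3 was not tested. Striatal neurons carry Adora2a, and of their 6 markers Gpr6 had no counts. Drd2, Drd1, Penk and Rgs9 had at most 1, 11, 18 and 32 counts in a library. Ppp1r1b had 1525, 1585, 352 and 2270 counts, or 62.2, 68.5, 15.5 and 90.1 CPM. Ppp1r1b and the list median were lowest in library 3, as Adora2a was, and highest in library 4, where Adora2a was not. The choroid plexus list was also lowest in library 3 and highest in library 4. Whether striatal neurons add to the level of Adora2a was not tested. The T and NK cell list had medians of 0.10, 0.25, -0.16 and 0.02 (log2), with 3 of 9 members at 1 CPM in every library and sums of 8.45 to 21.1 CPM.

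Beyond the 9 genes, 53 further genes of the wider purinergic list were measured, of which 38 reached 1 CPM in every library and 43 were tested. Past the threshold between libraries in edgeR were 5 of the 43, against 3.28% of all genes: Enpp2, Alpl, Slc29a4, Pnp and Il1b. At an unadjusted p under 0.05 there were 7 of 43, Adora2b and Nt5e in addition, against 9.57% of all genes. The quasi-likelihood test called none of them, with an adjusted p of 0.889 for each. Enpp2, whose product autotaxin makes lysophosphatidic acid, had 4178, 4808, 1068 and 6764 CPM (edgeR, adjusted p = 3.2e-07). Alpl, an alkaline phosphatase that can remove phosphate from AMP, had 21.5, 29.1, 4.84 and 22.6 CPM (edgeR, adjusted p = 0.00779). Slc29a4, a transporter of monoamines and adenosine, had 36.1, 49.0, 9.03 and 67.1 CPM (edgeR, adjusted p = 3.6e-06). All 3 were lowest in library 3, where the choroid plexus and endothelial lists were lowest too, and all 3 lost the call without library 3 (adjusted p 0.996, 1.00 and 0.742, means 5250, 24.4 and 50.7 CPM). Alpl also lost it without library 2 (0.126). Pnp, which splits inosine and guanosine, had 162, 69.5, 72.9 and 63.9 CPM, with library 1 apart (edgeR, adjusted p = 0.0185). It lost the call without library 1 (adjusted p = 1.00, mean 68.8 CPM), 2 (0.0571) or 4 (0.116), and with scaling to the homeostatic list (0.227). Il1b, the cytokine released after P2X7 activation, had 74.8, 143, 49.0 and 46.3 CPM, highest in library 2 (edgeR, adjusted p = 0.00173), and lost the call without library 2 (1.00) or library 4 (0.0513).

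The remaining wider genes at 1 CPM or more in every library did not pass the threshold. Of the G protein alpha subunits through which these receptors act, Gnai2 led with 770 ± 92.3 CPM (SD, n = 4), followed by Gnas with 733 ± 92.2, Gna13 with 217 ± 19.2, Gnaq with 154 ± 8.51, Gnai3 with 121 ± 13.3, Gna11 with 39.8 ± 6.10 and Gnai1 with 6.87 ± 2.43 CPM. The nucleoside transporters Slc29a3, of lysosomes, and Slc29a1, of the plasma membrane, had 513 ± 128 and 123 ± 18.8 CPM, while Slc29a2 and Slc28a3 had 3.46 ± 0.198 and 3.06 ± 1.6 CPM. Adk and Ada, which convert adenosine to AMP and to inosine, had 9.96 ± 2.53 and 2.21 ± 0.462 CPM. The potassium channel genes Kcnk6 and Kcnk13, of which Kcnk13 encodes the THIK channel of microglia, had 458 ± 49.8 and 55.9 ± 5.18 CPM. Inflammasome genes downstream of P2X7 were at 121 ± 17.4 CPM for Nlrp3, 112 ± 23.7 for Pycard and 58.8 ± 10.6 for Casp1. Routes of ATP release were represented by Calhm2 at 62.9 ± 6.38, Lrrc8a at 23.6 ± 3.64, the connexin gene Gja1 at 22.1 ± 7.34, the vesicular nucleotide transporter gene Slc17a9 at 13.9 ± 1.19 and the pannexin gene Panx1 at 7.78 ± 1.41 CPM. Enpp1, an ectonucleotide pyrophosphatase, had 17.5 ± 2.61 CPM, and the intracellular family members Entpd6, Entpd5 and Entpd7 had 27.8 ± 1.25, 25 ± 3.31 and 18 ± 2.43 CPM. Entpd4 had no counts, and as it has a near-identical copy that value is uncertain.

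**Figure D4:**
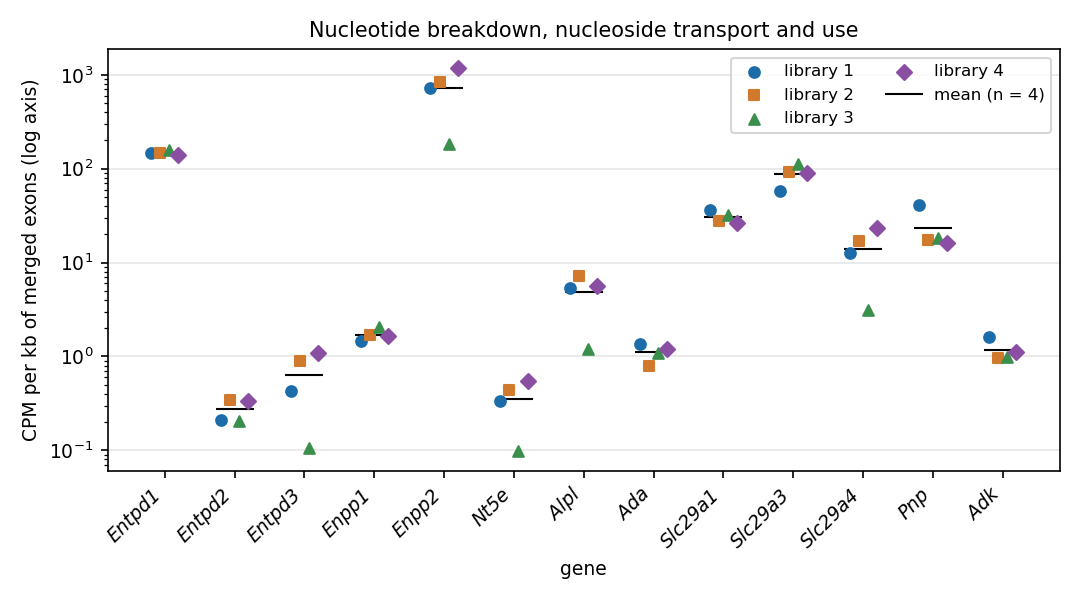
CPM per kilobase of merged exons on a log axis for genes of nucleotide breakdown, nucleoside transport and nucleoside use, with 1 point per library and the mean (n = 4) in black. Entpd1 lies at 147 with points close together, Nt5e at 0.356, and Entpd2, Entpd3, Enpp2, Nt5e, Alpl and Slc29a4 have library 3 lowest.

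Genes with the most similar profile over the 4 libraries were sought among 9306 genes with a mean of at least 10 CPM, by the SD of the log2 ratio to the member. For P2ry12 these were Itgb1bp1, 1810022K09Rik, Psmc6, Rer1 and Dhrs7, with SDs of 0.01 to 0.02 against a median of 0.34 over all genes compared. For P2ry13 they were Prmt6 and Nop56, for Entpd1 Nup205 and Rmc1, for P2rx7 Arhgdia and Rps6ka1, for P2ry6 Zfp810 and Cyb5r1, for Adora3 Mrfap1 and Nedd8, and for P2rx4 Parvg and Poli. P2ry14 and Adora2a, compared with 9307 genes, were closest to Plcg1 and Endod1 and to Dennd3 and Sh3bp4, with SDs of up to 0.05. Among the members, Adora3 was closest to P2ry12, with an SD of 0.09 that 4.28% of the genes compared stayed under, and P2ry13 followed with 0.16 (15.8%). Per kilobase the ratio of P2ry12 to Adora3 was 42.3, 41.1, 37.9 and 37.4, although the levels of both differed 1.56- and 1.47-fold between libraries. With 4 libraries and this many genes, close matches are common, and they describe these libraries only.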

How the data were processed

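RNA from CD11b-positive mouse brain cells was sequenced in 4 libraries of 1 group, from 300 ng of total RNA after poly(A) selection with a strand-marking kit, per the labels' protocols. The authors deposited raw counts per Ensembl gene. The tools named are featureCounts 1.6.5, STAR 2.7.2b and bcl2fastq 2.20.0.422, with the GRCm38 build, per the submitters' processing notes. Annotation release, strand setting and handling of multi-mapping reads: not given in the sources used here. GENCODE M21 matched 55230 of 55471 identifiers and gave symbols and exon lengths, and the other 241 stayed in the totals.

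CPM were computed with TMM scaling in edgeR 4.0.16 under R 4.3.3. A floor of 3 counts corresponds to 0.119 to 0.132 CPM. Spread between libraries was tested over the 14112 genes kept by filterByExpr with edgeR's negative binomial goodness of fit (intercept only, trended dispersion, chi-square on 3 degrees of freedom), with Benjamini-Hochberg adjustment and a threshold of 0.05. With 1 group there is no coefficient for a quasi-likelihood F-test. As an alternative, each quasi-likelihood variance was set against its trended prior on 2.62 degrees of freedom, and DESeq2 1.42.0 gave dispersion outliers. Both edgeR tests were tested on simulated data, where they called most genes given the larger of the added changes and few given the smaller. Simulated counts followed the trended dispersion with no scatter of single genes around it, a setting that measured genes need not follow. On the measured data the quasi-likelihood test called 0 of 14112 genes, so its result for the members carries little weight. Levels of different genes were compared per kilobase of merged exons. List levels are medians of log2(CPM + 0.5). No 2 libraries agreed within sampling noise (chi-square per degree of freedom of at least 19.2 over 15441 genes). The labels name no batch.

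Genes named in the text are the 9 members, every gene of the wider list with at least 1 CPM in every library, and the 5 genes most like P2ry12 and the 2 most like each other member. Genes of the wider list below 1 CPM, single marker genes and the overlapping genes Med12l and Tmigd3 fall outside that rule and were chosen after their values were seen. The members and lists were chosen with earlier results of these data known. Promoters came from RefSeq on GRCm38.p6 for 7 of 9 members, not for P2ry6 and Adora2a. One marker gene is not reported here.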

Additional observations from a re-analysis of the deposited data

Results flagged for a closer look

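A gap of the highest or lowest library to its nearest neighbour, as a share of the range of the 4 libraries, above Dixon's critical value at 95% set a value apart. Chance does this in about 1 in 20 groups, and 5 of 62 values examined did so. P2ry4, with 1 count in library 1 and none elsewhere, is not among these 5, although its gap was its whole range. None of the 9 members was among them in CPM with TMM scaling, where P2rx4 came closest (0.826). With total-count scaling P2ry12, at 4279, 2830, 3001 and 2805 CPM, also passed the critical value, with library 1 high (0.867). P2ry1 had 3.92, 4.36, 1.10 and 4.05 CPM in libraries 1 to 4, with library 3 low (0.863). Entpd7 had 14.4, 19.1, 19.6 and 19.1 CPM, with library 1 low (0.896). Pnp had 162, 69.5, 72.9 and 63.9 CPM, with library 1 high (0.908). Gnai2 had 703, 731, 906 and 737 CPM, with library 3 high (0.833). Gnas had 596, 780, 761 and 794 CPM, with library 1 low (0.833).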

How the results depend on the processing

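No paired analysis was possible because the libraries form 1 group. No member passed the threshold for spread under 3 other scalings, without the filter, without any 1 library, in the quasi-likelihood test or in DESeq2. The smallest adjusted p of a member was 0.842 and the smallest unadjusted p 0.0734, both for P2ry12 without library 3. The count of all genes past the threshold, 463, was 454, 467 and 424 under other scalings and 419 without the filter, but 0 in the quasi-likelihood test and 5 in DESeq2. Without 1 library it was 106 (without library 3) to 425 (without library 1). Mean levels of the members moved by -0.63% to 3.14% under other scalings and by -11.0% to 18% without 1 library. In each of these settings and with other length measures, 34 to 36 of the 36 pairs had the same member higher in every library. That count does not compare the order between settings. By mean CPM not divided by length, P2rx7 ranked above P2ry6 and P2ry14 above Adora2a. By CPM, Entpd1 was also above P2ry13 in libraries 2, 3 and 4, at 826, 875 and 772 against 795, 863 and 730. Of the 21 genes named as most like a member, 21 were the same with total counts and 10 with a minimum of 50 CPM, where fewer genes are compared. Tried after the data were seen, the mean log2 ratio of P2ry12 to P2rx7, 4.70 over 4 libraries, was 4.49 to 4.78 without 1 library. P2ry14 and Adora2a are limited by depth, at 19 to 108 counts in a library.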
